A study of Homo sapiens with 12 samples.

Results

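MIR9-3HG, MIR302CHG and MIR17HG are genes whose long RNAs carry microRNA hairpins, and they were followed through cerebral organoids (COs) grown with and without an edit at c-JUN. The members were chosen by gene symbol from a list of 4 host genes, and 3 of them were among the 10976 genes of the deposited files. The fourth, MIR100HG, was not analysed here. The list was selected on these same samples: MIR9-3HG and MIR302CHG stood out for their differences between KO and WT on day 24. For that contrast, and for changes between days that use the same libraries, the members' values are therefore a description with no p-value.

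COs are spheres of neural tissue that self-organise from pluripotent stem cells. Every CO here derived from H1 human embryonic stem cells, an established line, either unedited (WT) or as clone KO#2 or KO#10, in which CRISPR-Cas9 had been used against c-JUN. RNA was taken on day 12 and day 24, with 2 libraries per line, so each day had 2 libraries labelled WT and 4 labelled KO. Each library came from several pooled COs, and although the study's methods speak of separate batches, no library is tied to one, so the p-values measure only the spread between these libraries. Ribosomal RNA was removed and the kit kept the strand, so that long host RNAs were measured, and mature microRNAs were not.

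The deposited values are whole-number scores with the same median of 17 and the same highest value in every library, and the depth behind them is unknown. The JUN gene itself scored 4 and 8 in the WT libraries of day 12 and 13 to 19 in those labelled KO, and 13 and 15 against 29 to 39 on day 24. JUN RNA was therefore higher, not absent, in all libraries labelled KO, and the position of the edit is not given in the sources used here. Groups are named as labelled, and every direction below rests on those labels. Of the genes that mark other tissues, 9 hepatic and yolk sac markers summed to 7186 and 7368 in the WT libraries of day 24, to 33, 40 and 107 in 3 libraries labelled KO, and to 1302 in KO#10 replicate 1. The sums of 9 neuron markers were 171 and 334 in WT, 1411 to 2034 in those 3 libraries, and 421 in KO#10 replicate 1. The labelled neural tissue thus had weak neuron markers in the WT libraries and in 1 library labelled KO on day 24. Neural progenitor markers set that library apart less. On day 24, 8 of them summed to 987 in KO#10 replicate 1, to 1025 to 1089 in the other libraries labelled KO, and to 547 and 729 in WT.

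A microRNA is cut from a hairpin in a longer transcript, first in the nucleus by DROSHA with DGCR8 and then in the cytoplasm by DICER1, and pairs with its target RNAs mainly through its seed, bases 2 to 8. miR-9 is known as a microRNA of neural progenitors and neurons and is made from separate loci. The miR-302 cluster is known for its high level in pluripotent stem cells, where pluripotency factors bind upstream of it. The miR-17-92 cluster is known for its activity in dividing cells.

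The mature microRNAs of MIR302CHG are shown because 4 of its 5 share 1 seed. Sequences are from RefSeq (GRCh38.p14), 5′ to 3′, with the seed in capitals.
miR-302a-3p: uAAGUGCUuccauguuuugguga
miR-302b-3p: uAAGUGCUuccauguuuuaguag
miR-302c-3p: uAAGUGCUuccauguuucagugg
miR-302d-3p: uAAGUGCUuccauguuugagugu
miR-367-3p: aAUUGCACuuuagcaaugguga

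Those of MIR17HG are shown because their seeds meet those of the miR-302 cluster. The 6 bases AAGUGC lie in the seeds of miR-17-5p, miR-20a-5p and the 4 miR-302 microRNAs, shifted by a single base. The seed AUUGCAC is the same in miR-367-3p and miR-92a-3p. Both host genes thus carry microRNAs of overlapping seed classes.
miR-17-5p: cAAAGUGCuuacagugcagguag
miR-20a-5p: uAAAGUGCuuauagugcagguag
miR-18a-5p: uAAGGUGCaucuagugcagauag
miR-19a-3p: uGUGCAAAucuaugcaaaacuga
miR-19b-3p: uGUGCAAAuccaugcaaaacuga
miR-92a-3p: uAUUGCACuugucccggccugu

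MIR9-3HG holds 1 of 3 miR-9 hairpins of the genome. The hairpins are shown because the mature sequences, in capitals, were identical at the 3 loci, while the loops and flanks differed.
MIR9-1: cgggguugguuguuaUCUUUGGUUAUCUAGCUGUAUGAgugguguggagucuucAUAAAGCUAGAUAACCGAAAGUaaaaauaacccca
MIR9-2: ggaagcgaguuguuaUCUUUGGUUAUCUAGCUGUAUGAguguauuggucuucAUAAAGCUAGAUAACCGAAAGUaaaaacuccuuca
MIR9-3: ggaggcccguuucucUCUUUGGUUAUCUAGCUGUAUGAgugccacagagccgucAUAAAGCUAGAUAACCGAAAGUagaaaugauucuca

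The MIR9-3 hairpin lies at chr15:89368017-89368106 (+), in MIR9-3HG (ENSG00000255571, chr15:89361579-89398487). MIR9-1 lies at chr1:156420341-156420429 (-) in MIR9-1HG, and MIR9-2 at chr5:88666853-88666939 (-) in LINC00461, a long noncoding RNA. In the GENCODE release 29 annotation the MIR9-3 hairpin was intronic in the 3 transcripts of MIR9-3HG that span it, among 12. The 5 hairpins of MIR302CHG (ENSG00000249532, chr4:112646476-112650051, -) lie between chr4:112647874-112647941 and chr4:112648485-112648557. They were intronic in all 3 of its transcripts, except that the MIR302B hairpin reached into an exon of 1. The 6 hairpins of MIR17HG (ENSG00000215417, chr13:91347820-91354579, +) lie between chr13:91350605-91350688 and chr13:91351314-91351391, inside an exon in 2 of 3 transcripts and in an intron of the other.

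**Figure D1:**
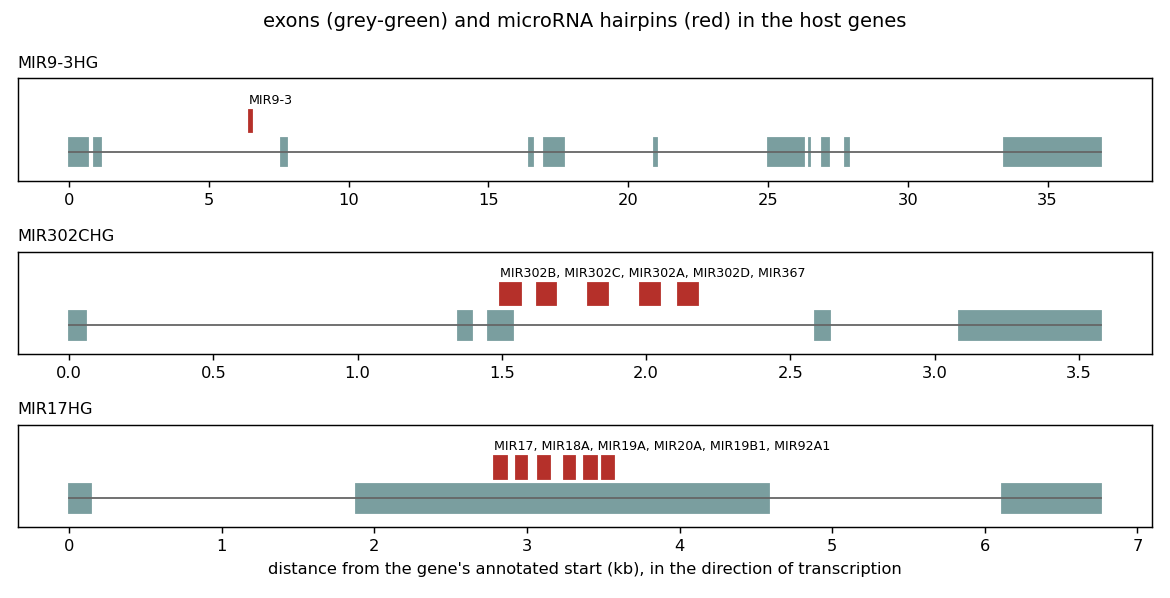
Maps of MIR9-3HG, MIR302CHG and MIR17HG, with the distance from each gene's annotated start in kb on the x axis, exons of all transcripts merged as grey-green boxes and microRNA hairpins as red boxes. The single MIR9-3 hairpin stands between exons, the 5 hairpins of MIR302CHG follow each other in the middle of the gene, and the 6 of MIR17HG lie over its long middle exon.

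MIR302CHG lies inside LARP7, a protein-coding gene of the opposite strand, and 302 of the 743 exon bases of MIR302CHG were also exon bases of LARP7. No source says if strand was used in counting, so reads of the 2 genes may be mixed. LARP7 scored 36 and 29 in WT and 21 to 23 in the libraries labelled KO on day 12, and 23 and 30 against 12 to 19 on day 24. Its day 24 difference was -0.70 on the log2 (score + 1) scale (SE 0.21, limma adjusted p = 0.0643).

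MIR9-3HG was listed at 0 in both WT libraries of day 12, and at 1 and 0 in those of day 24. On day 12 KO#2 scored 2 in both libraries and KO#10 scored 1 in both. On day 24 KO#2 scored 21 and 36, and KO#10 scored 4 and 34. All 4 libraries labelled KO thus lay above both WT libraries on each day, which held for 8.23% of the genes examined on day 12 and for 22.2% on day 24. The genes examined scored 10 or more in at least 2 libraries of the day. On day 12 MIR9-3HG was not among them, so that share describes genes at higher levels. The lowest of the day 24 libraries labelled KO, KO#10 replicate 1, was the one among them with high hepatic and mesenchyme markers (sums of 1302 and 2918) and low neuron markers (421). The part of these cells in its score of 4 was not tested. In bulk RNA, fewer cells of a type and less RNA per cell cannot be told apart.

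On the log2 (score + 1) scale, MIR9-3HG was 3.78 higher in the libraries labelled KO than in WT on day 24 (SE 0.82). Without KO#10 replicate 1 the difference was 4.43. From day 12 to day 24 it was 3.25 higher in KO#2 and 2.73 higher in KO#10, and all 4 libraries labelled KO of day 24 stood above all 4 of day 12, as 16.0% of all genes did. The 2 clones overlapped on day 24, with a difference of 1.11 (KO#2 minus KO#10, SE 0.80, limma adjusted p = 0.86), which became -0.29 without KO#10 replicate 1 and 2.51 (adjusted p = 0.123) without KO#10 replicate 2. In order of level, day 24 KO#2 and KO#10 stood first with overlapping values, and the 8 other libraries followed with scores of 0 to 2. The gene passed the filter on low values (10 or more in at least 2 libraries) only through its high group on day 24, and did not pass it on day 12.

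MIR302CHG moved the other way. WT libraries scored 60 and 63 on day 12, then 120 and 250 on day 24. KO#2 scored 12 and 29 on day 12 and KO#10 scored 12 and 56. On day 24 KO#2 scored 6 and 3 and KO#10 scored 3 and 0. The libraries labelled KO were below both WT libraries on each day, by a narrow gap on day 12 (56 against 60) and a wide one on day 24 (6 against 120). Such a separation below WT was seen for 8.34% of the genes on day 12 and for 21.8% on day 24.

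The day 12 libraries had no part in the day 24 contrast. On day 12 the MIR302CHG difference of KO minus WT was -1.43 on the log2 (score + 1) scale (SE 0.56). The limma adjusted p was 0.398 over 8885 genes, and 0.0329 before adjustment. It was not called: a call needed an adjusted p under 0.05 and a fold of 2 or more, which 0.0225% of the genes met as higher and 0.0675% as lower. On day 24 the difference was -5.74 (SE 0.73), and it lay between -6.11 and -5.18 when each library labelled KO was left out in turn. Without either WT library the gene no longer passed the filter on low values. Calls over all genes on that day were 4.22% higher and 3.79% lower, and the number called ranged from 2 to 1346 as single libraries were left out. The WT libraries of day 24, high in MIR302CHG, were also those with hepatic sums of 7186 and 7368 and mesenchyme sums of 2082 and 2449, and the part of such cells in the difference was not tested. KO#10 replicate 1, with a mesenchyme sum of 2918, scored 3 for MIR302CHG.

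From day 12 to day 24 MIR302CHG was 1.48 higher in WT (SE 0.77), and the change was -1.90 in KO#2 and -3.77 in KO#10, on the same log2 scale. Both WT libraries of day 24 stood above both of day 12, and all 4 libraries labelled KO of day 24 stood below all 4 of day 12. Of all genes, 32.1% stood apart upwards in WT and 15.6% downwards in the libraries labelled KO. The order of levels was WT day 24, WT day 12, KO#10 and KO#2 of day 12, KO#2 day 24 and KO#10 day 24. The clones overlapped on day 12 and touched at a score of 3 on day 24, with a day 24 difference of 1.40 (KO#2 minus KO#10, SE 0.77, limma adjusted p = 0.839) and a day 12 difference of -0.46 (SE 0.77, adjusted p = 1).

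MIR17HG differed mainly by day. WT libraries scored 37 and 34 on day 12 and 11 and 10 on day 24, and 31.6% of all genes stood apart downwards in WT in this way. KO#2 scored 26 and 28, then 20 and 14, while KO#10 scored 20 and 35, then 12 and 11. The day 12 groups overlapped (20 to 35 against 34 and 37), and on day 24 the lowest score of the libraries labelled KO, 11, equalled the higher WT score. The difference of KO against WT was -0.39 on day 12 (SE 0.21, limma adjusted p = 0.547) and 0.37 on day 24 (SE 0.24), both on the log2 (score + 1) scale.

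Between days, MIR17HG was lower on day 24, with a difference of -1.67 in WT (SE 0.25) and of -0.90 in the libraries labelled KO (SE 0.18). Across all genes in WT, 6.85% were called higher on day 24 and 7.74% lower. In the libraries labelled KO the shares were 5.79% higher and 5.58% lower. The clones differed by 0.03 on day 12 (SE 0.25, limma adjusted p = 1) and by 0.51 on day 24 (KO#2 minus KO#10, SE 0.25, adjusted p = 0.839). No gene was called between the clones by limma, 0% of 9952 on day 12 and 0% on day 24, with 154 and 575 genes at an unadjusted p under 0.05.

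**Figure D2:**
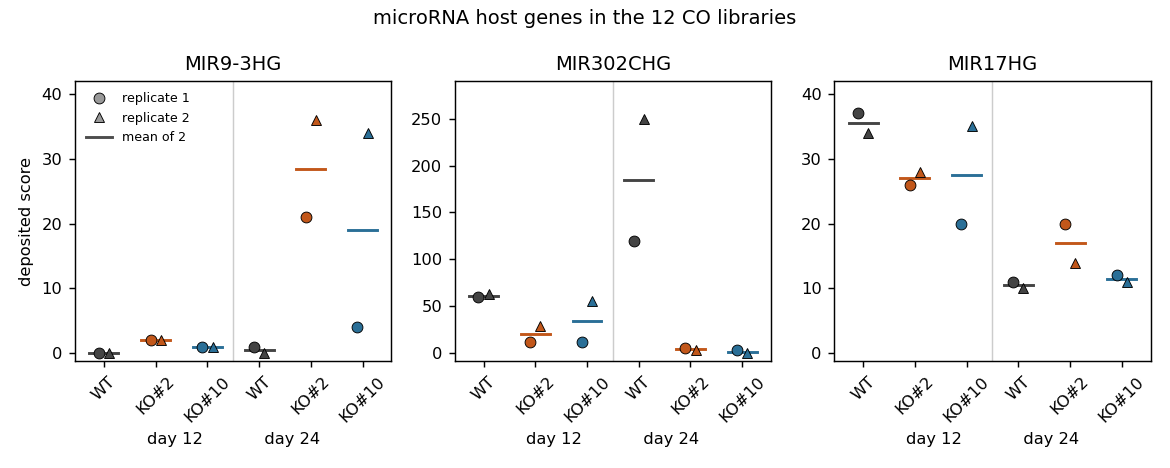
Deposited scores (y axis, separate scale per gene) of the 3 host genes in the 12 CO libraries by line and day, where circles are replicate 1, triangles replicate 2 and lines the mean of both. MIR9-3HG reaches 21 to 36 in 3 libraries labelled KO on day 24, MIR302CHG is highest in WT on day 24 (120 and 250) and at 0 to 6 in those labelled KO, and MIR17HG is lower on day 24 in every line.

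Of the other hosts of miR-9 hairpins, MIR9-1HG was called higher in the libraries labelled KO on day 24 and LINC00461 was not called. MIR9-1HG, the host of MIR9-1, scored 4 and 6 in WT and 9 to 40 in the libraries labelled KO on day 12, then 8 and 10 in WT against 61 and 167 in KO#2 and 33 and 172 in KO#10. Its day 24 difference was 3.15 (SE 0.66, limma adjusted p = 0.0306), and on day 12 it was 1.76 (SE 0.52, adjusted p = 0.257, or 0.0421 with the replicate block). For KO against WT on each day, MIR9-1HG passed the filter on low values only through libraries labelled KO, where it was high. These adjusted p are therefore not independent of that direction. The day 24 call was lost when any single library other than KO#10 replicate 1 was left out, with adjusted p from 0.0621 to 0.253, and without KO#10 replicate 1 it was 0.00656.

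LINC00461, the host of MIR9-2, was listed at 0 in both WT libraries of day 12 and at 0 or 1 in those labelled KO. On day 24 the WT scores were 13 and 3. KO#2 reached 72 and 243, and KO#10 reached 16 and 266. The day 24 difference of 3.66 (SE 1.13) missed the threshold (limma adjusted p = 0.0669), and passed it without KO#10 replicate 1 (4.49, adjusted p = 0.0112). Within the libraries labelled KO it was 6.07 higher on day 24 than on day 12 (SE 0.78, adjusted p = 0.000519), and MIR9-1HG was 2.14 higher (SE 0.57, adjusted p = 0.0157). LINC00461 passed the filter on low values only through day 24, when it was high, so its adjusted p is not independent of that direction. In all 3 miR-9 hosts, KO#10 replicate 1 was the lowest of the 4 libraries labelled KO on day 24.

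**Figure D3:**
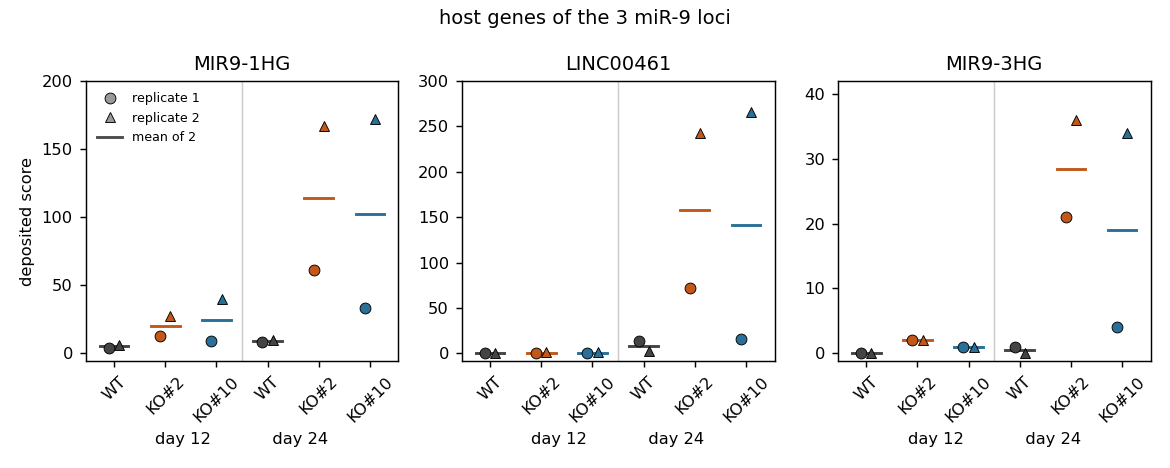
Deposited scores (y axis, separate scale per gene) of the host genes of the 3 miR-9 loci by line and day, with circles for replicate 1, triangles for replicate 2 and lines for the mean of both. On day 24 the WT libraries stay at 13 or below in the 3 genes, and KO#10 replicate 1 (33, 16 and 4 from left to right) lies below the other libraries labelled KO.

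Over a list of 65 other host genes, 43 were in the files and 33 were tested. On day 24, 2 were called higher in the libraries labelled KO (MIR9-1HG and TRPM3, the host of miR-204) and 2 lower (EGFL7, the host of miR-126, and IGF2, the host of miR-483), with a median difference of 0.34 against 0.01 for all genes. TRPM3 scored 9 and 7 in WT and 34 to 118 in those labelled KO (2.66, SE 0.46, adjusted p = 0.0223), and it passed the filter on low values only through the latter. IGF2 scored 200 and 158 against 10 to 70 (-2.94, SE 0.69, adjusted p = 0.0377). The shares called, 2 of 33 each way, were near those of all genes (4.22% higher and 3.79% lower). Without WT replicate 1, WT replicate 2, KO#2 replicate 2 or KO#10 replicate 2 none of the 33 was called, without KO#2 replicate 1 there was 1 higher call, and without KO#10 replicate 1 there were 7 higher and 2 lower. On day 12 limma called 0 of the 33, with 4 at an unadjusted p under 0.05. With the replicate block it called MIR9-1HG alone, which passed the filter that day only through libraries labelled KO.

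The files held 18 genes whose symbol has the form MIR...HG. MIR124-2HG, a host of the neuronal microRNA miR-124, scored 21 and 8 in WT and 25 to 88 in the libraries labelled KO on day 24 (1.81, SE 0.52, adjusted p = 0.0573). MIR124-1HG, another host of miR-124, scored 2 and 4 against 4 to 10, and MIR137HG scored 3 and 2 against 5 to 11. MIR7-3HG, a host of miR-7, scored 8 and 3 against 0 to 8, so that its groups overlapped. MIR124-1HG, MIR137HG and MIR7-3HG did not pass the filter on low values on day 24 and were not tested. For MIR124-2HG and MIR137HG all libraries labelled KO lay above both WT libraries, which held for 22.2% of the genes examined on day 24. MIR99AHG, the host of a miR-99 and let-7 cluster, was higher on day 24 than on day 12 in WT (1.66, SE 0.49, adjusted p = 0.0335). It was also higher in the libraries labelled KO (1.58, SE 0.35, adjusted p = 0.00698). WT scored 3 and 1, then 9 and 7, and those labelled KO 2 to 6, then 11 to 14. MIR99AHG thus passed the filter on low values only through day 24 libraries labelled KO, where it was high. Its adjusted p in the libraries labelled KO is not independent of that direction, and its WT scores all lay below 10. MIR3936HG was lower on day 24 in WT and in the libraries labelled KO, by -1.82 (adjusted p = 0.0174) and -1.13 (adjusted p = 0.0216). WT scored 9 and 9, then 3 and 1, and those labelled KO 11 to 29, then 5 to 9. MIR3936HG thus passed the filter only through day 12 libraries labelled KO, where it was high. Its adjusted p in the libraries labelled KO is not independent of that direction, and its WT scores all lay below 10.

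MIR302CHG was set beside genes of the pluripotent state, which include factors known to bind upstream of the cluster. Of 23 listed, 14 were in the files. On day 24, 9 of 12 tested were called lower in the libraries labelled KO and none higher, with a median of -3.09 against 0.01 for all genes. Of all genes, 4.22% were called higher and 3.79% lower. Of the 9, POU5F1, TDGF1, L1TD1, ZFP42 and LINC00678 reached 10 only in the WT libraries. They passed the filter on low values only because they were high there, so their calls are not independent of that direction. TDGF1, a co-receptor of NODAL, POU5F1, which encodes OCT4, and LINC00678 had the largest differences (-5.64, -4.64 and -4.14, with adjusted p of 0.0181, 0.00898 and 0.027). POU5F1 scored 75 and 236 in WT and 3 to 6 in the libraries labelled KO. SOX2, which pluripotent and neural progenitor cells share, differed by 0.10 (SE 0.31, adjusted p = 0.832).

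On day 12, 3 of 13 tested were called lower (POU5F1, TDGF1 and DNMT3B, a DNA methyltransferase), all 13 had a difference below 0, and the median was -1.03 against 0.00 for all genes. Of all genes, 0.0225% were called higher and 0.0675% lower. TDGF1, ZFP42, LINC00678 and VRTN reached 10 only in the WT libraries and so passed the filter on low values only through them. Their differences are not independent of that direction, nor are their calls, and all of them are among the replicate block calls below. POU5F1 scored 107 and 136 in WT and 16 to 19 in the libraries labelled KO (-2.76, SE 0.15, adjusted p = 0.000602). With the replicate block 7 were called lower on day 12, with each library left out 1 or 2, and with all 12 libraries in 1 fit 0. The day 24 count of 9 was 8 or 9 without KO#2 replicate 1 or KO#10 replicate 1, 3 of 7 without WT replicate 1, 2 without KO#10 replicate 2, and 0 without WT replicate 2 or KO#2 replicate 2.

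In WT the sum of the 14 pluripotency genes was 634 in replicate 1 and 1319 in replicate 2 of day 24, and MIR302CHG was 120 and 250 in the same libraries. On day 12 the WT sums were 1164 and 1418, with MIR302CHG lower, at 60 and 63. In replicate 1 of KO#2 and KO#10 on day 12 the sums were 779 and 815, with MIR302CHG at 12 and 12. In replicate 2 the sums were lower, 713 and 708, and MIR302CHG was higher, 29 and 56. In the libraries labelled KO the sum was 708 to 815 on day 12 and 144 to 172 on day 24. POU5F1 was 1.74 lower on day 24 than on day 12 in the libraries labelled KO (-1.74, SE 0.30, adjusted p = 0.00222), and in WT it differed by 0.14 (SE 0.43, adjusted p = 0.833).

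**Figure D4:**
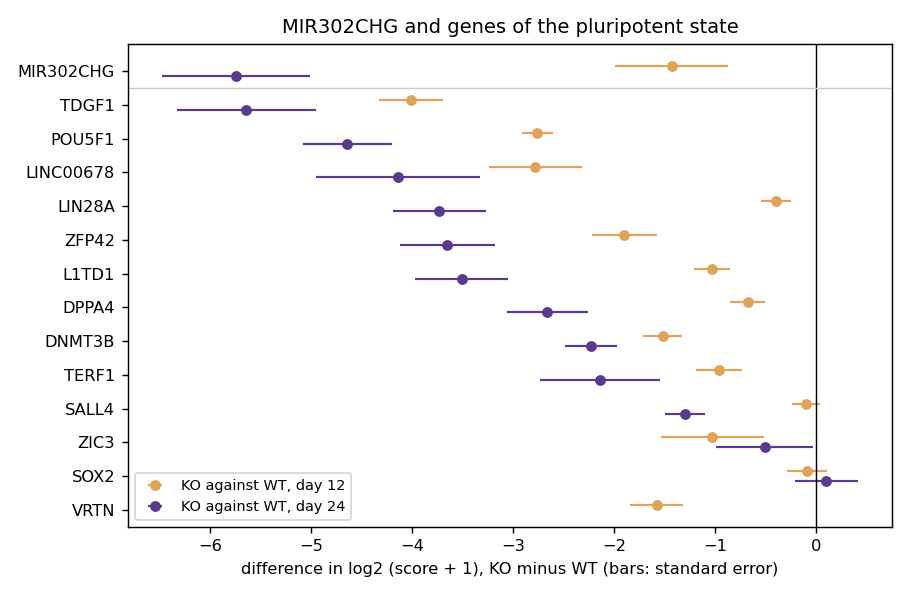
Differences in log2 (score + 1) between libraries labelled KO and WT (x axis) for MIR302CHG (top) and the tested genes of the pluripotent state (y axis), on day 12 (orange) and day 24 (purple), with bars for the standard error. MIR302CHG goes from -1.43 to -5.74, POU5F1 from -2.76 to -4.64 and TDGF1 from -4.01 to -5.64, whereas SOX2 stays near 0.

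The promoter window of MIR302CHG, 250 bases before to 50 after the upstream start, is shown because it holds an octamer, the DNA motif known for OCT4 and related factors. It lies at chr4:112650002-112650301 (RefSeq, GRCh38.p14, minus strand, written 5′ to 3′ along the gene), with the match in capitals.
MIR302CHG promoter: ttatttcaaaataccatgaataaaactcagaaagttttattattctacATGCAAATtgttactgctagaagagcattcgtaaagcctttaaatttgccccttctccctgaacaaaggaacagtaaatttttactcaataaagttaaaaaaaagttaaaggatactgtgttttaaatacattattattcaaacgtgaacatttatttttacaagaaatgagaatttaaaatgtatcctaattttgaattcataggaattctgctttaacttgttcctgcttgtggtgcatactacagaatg

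The octamer ATGCAAAT, searched on both strands, was found in 1.77% of 34943 promoter windows of the same length, and here it began at -202 from the start. It was not found in the second MIR302CHG window or in the windows of MIR9-3HG (4), MIR17HG (1) and MIR9-1HG (1). The AP-1 motif TGANTCA, bound by JUN dimers, was found in none of these 8 windows and in 7.72% of all, and the E-box CACGTG, bound by MYC dimers, in none of the 8 and in 7.23% of all. A match is only a match of letters, and its absence covers only these windows.

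Proteins that cut, load or modify microRNA precursors were read next. Of 24 listed, 21 were tested, and on day 24 DICER1 and TUT4, which adds uridines to precursors, were called higher in the libraries labelled KO and LIN28A and LIN28B, which bind let-7 precursors, lower. DICER1 scored 21 and 19 in WT and 36 to 55 in those labelled KO (1.21, SE 0.19, adjusted p = 0.0205). LIN28A scored 212 and 228 against 8 to 26 (-3.73, SE 0.46, adjusted p = 0.0181), and LIN28B 62 and 78 against 19 to 28 (-1.56, SE 0.19, adjusted p = 0.0181). Of all genes, 4.22% were called higher and 3.79% lower. DROSHA scored 25 in both WT libraries and 25 to 27 in those labelled KO. The median of the 21 was 0.45, with 18 above 0. With the replicate block TUT4 was no longer called (adjusted p = 0.0537), nor was it called without KO#2 replicate 1. All 4 calls were lost without either WT library or without KO#2 replicate 2, and without KO#10 replicate 2 only a single lower call was left.

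LIN28A and LIN28B had values on day 12 of 393 and 452, and 83 and 96, in WT, and of 302 to 335, and 76 to 107, in the libraries labelled KO. Between days LIN28A was lower by -4.27 (SE 0.32, adjusted p = 3.82e-05) in the libraries labelled KO, and by -0.94 in WT (SE 0.45, adjusted p = 0.147). In WT 6 processing genes were called lower on day 24, among them DGCR8 (-1.82, SE 0.19, adjusted p = 0.000485) and TUT4 (-1.51, SE 0.25, adjusted p = 0.00346). On day 12 no processing gene was called by limma between KO and WT, and 2 of 21 had an unadjusted p under 0.05.

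Lists of reported microRNA targets were read as counts only. Of 14 miR-9 targets tested on day 24, 2 were called higher in the libraries labelled KO (MAP1B, a microtubule protein, and FOXP2, a transcription factor) and 2 lower (CDH1, E-cadherin, and SIRT1, a deacetylase), with a median of 0.77. Of all genes on that day 4.22% were called higher and 3.79% lower. FOXP2 reached 10 only in libraries labelled KO and CDH1 only in WT libraries, so each passed the filter on low values only through the group where it was high. All miR-9 target calls were lost without WT replicate 1, WT replicate 2, KO#2 replicate 2 or KO#10 replicate 2, 1 lower call was left without KO#2 replicate 1, and without KO#10 replicate 1 there were 5 higher and 1 lower. The miR-9 targets REST and NR2E1, a neuronal gene repressor and a progenitor factor, differed by -0.20 (adjusted p = 0.501) and 1.49 (adjusted p = 0.174). Of 12 targets of the miR-302 cluster, NR2F2 was called higher (1.14, adjusted p = 0.0417) and the cell cycle inhibitor CDKN1A lower (-1.75, adjusted p = 0.0345), with a median of 0.43. The NR2F2 call was lost with the replicate block (adjusted p = 0.0511) and without any single library other than KO#10 replicate 1. CDKN1A was also the only call among 13 targets of miR-17-92, whose median was 0.14, and in both lists it was lost without either WT library, KO#2 replicate 2 or KO#10 replicate 2.

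The list for let-7, miR-100 and miR-125b, microRNAs of the MIR100HG locus and its relatives, held 17 tested genes with a median of -0.14. DICER1 was called higher, and LIN28A, LIN28B, HMGA1, TRIM71 and ARID3A lower. LIN28A, LIN28B and DICER1 also stand in the lists above. The shares of all genes called were 4.22% higher and 3.79% lower. The 5 lower calls fell to 0 when WT replicate 2 or KO#2 replicate 2 was left out, to 1 when WT replicate 1 or KO#10 replicate 2 was, and to 3 when KO#2 replicate 1 was. On day 12 limma called 0 genes in the 4 target lists, with 4, 2, 2 and 1 at an unadjusted p under 0.05. With the replicate block it called MEIS2 higher and CDH1 lower among the miR-9 targets and CCN2 higher among those of miR-17-92. The median of all genes was 0.01 on day 24 and 0.00 on day 12.

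The genes most like each host were sought among the 3 with the highest Pearson r over log2 (score + 1) in the 12 libraries, among 9952 genes. They were ATP9A, ZNF536 and FAT4 for MIR9-3HG (r = 0.986, 0.983 and 0.981), RAB25, LARGE2 and GRB7 for MIR302CHG (0.945, 0.942 and 0.936), and, for MIR17HG, DMTF1 and CLCN7 (0.952 and 0.951). The 12 libraries fall into groups of line and day, so these values describe a shared pattern over groups. RAB25 scored 35 and 57 in the WT libraries of day 24 and 2 to 3 in those labelled KO. DMTF1 scored 338 to 473 on day 12 and 54 to 149 on day 24.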

How the data were processed

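Total RNA of pooled COs was depleted of ribosomal RNA and sequenced as strand-specific paired-end libraries. The authors deposited 1 whole-number score per gene and library for 10976 genes, and all libraries share nearly the same distribution, as rounding after a distribution normalization would leave. The submitters' processing notes name bcl2fastq, Bowtie2 and RSEM, without versions, and a mouse build, whereas the genes are human. The intervals of MIR9-3HG, MIR302CHG and MIR17HG equal those of GENCODE release 29 (GRCh38), and those of MIR9-1HG and LINC00461 do not. Groups were taken from the sample labels.

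Scores were transformed as log2 (score + 1), and genes scoring 10 or more in at least 2 of the libraries compared entered limma 3.58.1 (R 4.3.3, eBayes with a trend), with Benjamini-Hochberg adjustment over all genes tested. Each day had its own fit of KO against WT, and clones and days in 1 fit of 6 groups and 12 libraries. Calls needed an adjusted p under 0.05 and a fold of 2 or more. With 2 against 4 libraries an exact permutation test cannot go below p = 0.0667, so none was used. The test was tried on simulated data. Same-numbered replicates deviated together in all 3 pairs of lines on day 12 (r across genes of 0.428 to 0.598). On day 24 they did so in 2 of 3 (0.212 and 0.346, against -0.106). The replicate number comes from the labels. The main fits, those of day 12 included, did not use this pairing, and only the replicate block among the alternatives did. Alternatives were other filters, a pseudocount of 0.1, no trend, centring, a replicate block, separate clones, 1 fit of all libraries and each library left out. For list counts and list genes these were added after the data were seen. The members and gene lists were chosen with earlier results of these data known. The text names the members, the called genes of each list (3 in each direction where over 6 were called), some further genes, hosts of the form MIR...HG and the 3 genes most like each member. Some of these are not reported here. JUN is given as a check, and SOX2, MEIS2 and CCN2 were named after their values were seen. Sequences are from RefSeq tables (GRCh38.p14); figures were drawn with matplotlib 3.10.9.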

Additional observations from a re-analysis of the deposited data

Results flagged for a closer look

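MIR302CHG was flagged because its change between days went in opposite directions by genotype. It was higher on day 24 than on day 12 in both WT libraries (120 and 250 against 60 and 63) and lower in all 4 libraries labelled KO (0 to 6 against 12 to 56). The change in the libraries labelled KO minus that in WT was -4.31 on the log2 (score + 1) scale, and this difference was not tested.

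In 56 groups of 4 libraries labelled KO (28 host and named genes on 2 days), 3 held a library far from the other 3 by Dixon's ratio, and chance flags about 1 in 20. On day 24, MIR1915HG scored 8 in KO#2 replicate 1 and 5 in the others (ratio 1.000), MIR217HG 8 in KO#2 replicate 1 and 1 to 2 in the others (0.857), and MIR4435-2HG 1 in KO#10 replicate 1 and 0 in the others (1.000). No member gene was among them.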

How the results depend on the processing

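Counts of called genes moved with the setting. On day 12, 8 genes were called for KO against WT, 71 with the replicate block, 16 without the variance trend, 1 with the clones as separate groups, 1 with all 12 libraries in 1 fit, and 1 to 4 with each library left out. On day 24, 744 were called, 476 with a filter of 20, and 2 to 1346 with each library left out: 2 when WT replicate 2 was omitted, 23 when WT replicate 1 was, 263 or 15 for KO#2 replicate 1 or 2, and 1346 or 23 for KO#10 replicate 1 or 2. Between the clones on day 24, 0 were called and 0 to 56 with a library left out (56 without KO#10 replicate 2). For WT between days, 1452 were called, and 647 to 1398 with a library left out (647 without WT day 12 replicate 1, 720 without WT day 24 replicate 2). Higher calls made up 25% of the day 12 calls, and 50.7% with the replicate block.

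With a pseudocount of 0.1, MIR9-3HG differed by 5.77 on day 24 between KO and WT (3.78 with 1), and MIR302CHG by -3.83 between days in KO (-2.83 with 1). By Spearman's rho, 0, 1 and 0 of the 3 genes most like MIR9-3HG, MIR302CHG and MIR17HG were the same. The day 12 difference of MIR302CHG kept its direction in all alternatives run, with adjusted p from 0.112 (replicate block) to 0.814, and that of MIR17HG with adjusted p from 0.287 to 0.858. The replicate block changed no call of a member. Leaving out a WT library of day 24 gave no MIR302CHG value, since the gene then failed the filter. The cause of these shifts was not tested. Scores of 0 to 5 are coarse, the depth is unknown, and 2 WT libraries per day limit what can be called.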
